A study of Mus musculus with 2 samples.

Results

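The cells described here were gated as astrocytes from the optic nerve of Nf1-OPG mice, and were chosen by measured values of single-cell RNA-seq libraries, namely the unique molecular identifiers (UMIs, each counting 1 captured transcript) of 3 astrocyte genes and of 6 genes of other cells. A barcode was taken when Aqp4 (the water channel of astrocyte endfeet), Gfap (the glial intermediate filament) and Slc1a2 (the glutamate transporter GLT-1) together gave at least 3 UMIs, when the oligodendrocyte precursor genes Lhfpl3, C1ql1 and Neu4 and the leukocyte gene Ptprc gave none, and when the myelin genes Mog and Mag together gave at most 2. Of 25652 barcodes that passed the filters on genes, UMIs and mitochondrial content, 114 met this rule. The library C-ON held 10 of them among 8834 kept barcodes (0.113%), and the library FMC_new held 104 among 16818 (0.618%).

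Astrocytes take up glutamate and GABA, convert glutamate to glutamine, buffer potassium and bicarbonate through a network joined by connexins, and secrete the lipoproteins that carry lipid between cells of the nervous system. In the optic nerve, a white matter tract without neuronal cell bodies, they contact axons, vessels and the pial surface, and they answer injury by raising intermediate filaments and acute phase genes. Neurofibromin, the product of Nf1, is a negative regulator of RAS.

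Both libraries were 10x Genomics 5′ libraries from optic nerves of 12-week-old mice of 1 genotype, Nf1-OPG, in which 1 Nf1 allele carries a germline mutation and the other is floxed and deleted by Cre driven from a GFAP promoter (Nf1 flox/mut; GFAP-Cre, on C57BL/6). The labels describe pools of 10 mice, title 1 library a control and the other FMC new, and give no treatment, so the libraries were read as 2 replicates of 1 group and their values are given side by side. No nerve without Nf1 loss was analysed here, so nothing below compares a tumor with normal tissue. Nerves were dissociated enzymatically with removal of debris and myelin, and the promoter that drives Cre belongs to 1 of the genes of the rule.

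C-ON held 10845 barcodes and FMC_new 21341, with a median of 6810.5 and 4676 UMIs in kept barcodes. The 10 astrocytes of C-ON carried 1628 to 16106 UMIs (median 3008, 41002 in all), and the 104 of FMC_new carried 780 to 16849 (median 3679.5, 521309 in all). Kept barcodes of the 2 libraries shared 188 sequences, and 1 astrocyte of FMC_new shared its barcode with a kept barcode of C-ON. Gh, the pituitary growth hormone gene, had a UMI in 103 of 104 astrocytes of FMC_new and in none of C-ON. Poisson intervals for levels (CPM, UMIs per 1000000 UMIs of the summed cells) and Clopper-Pearson intervals for shares are 95% intervals and cover counting error only.

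The rule collected more than 1 kind of cell. Of 25 astrocyte genes outside the rule, such as Slc1a3, Gja1, Aldoc, Agt and Ntsr2, 72 of the 114 cells had a UMI of at least 10. Of these, 66 had under 2 UMIs of Aldh1a2 and under 4 of 6 ependymal markers (median 19 identity genes, range 10 to 24), and they are called identity-high here (9 in C-ON and 57 in FMC_new). The other 6 are counted in the next groups (2 and 4 cells). A set of 17 cells, all of FMC_new, had at least 2 UMIs of Aldh1a2, a retinoic acid synthesis enzyme, and were led by Rbpms (2573 CPM), Atp1b1 (2920), Mia (7080.2), Cyp2f2 (1743) and Igfbp5 (5188), with Aqp4 in all 17 and Slc1a2 in 4. These cells carried 3 to 6 (median 4) of the 6 listed markers of folliculostellate cells of the pituitary (S100b, Fxyd1, Aldh1a2, Cyp2f2, Anxa1 and Capn6), compared with a median of 1 in identity-high cells, and Aldh1a2 itself had chosen them. Another 6 cells of FMC_new carried markers of ciliated ependymal cells (Tmem212 at 3340, Dynlrb2 at 2369 and Ccdc153 at 1010 CPM), with Aqp4 in 6, Gfap in 5 and Slc1a2 in 0. The other 25 (1 in C-ON and 24 in FMC_new) had a median of 5 of the 25 identity genes and were led by immunoglobulin, complement C1q and Gh UMIs. These groups were set after the values had been seen and serve as a description. The leading genes thus went against the label for the 17 and the 6 cells, and few identity genes were found in the 25. The name astrocytes is used below for all 114 gated cells unless identity-high is written. Summed levels and tests weight each cell by its UMIs. The Aldh1a2 and ependymal-marker cells had medians of 7455 and 8724.5 UMIs, compared with 3183.5 in identity-high cells. Those groups thus take a larger part of the astrocyte sums than of the cells.

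**Figure D1:**
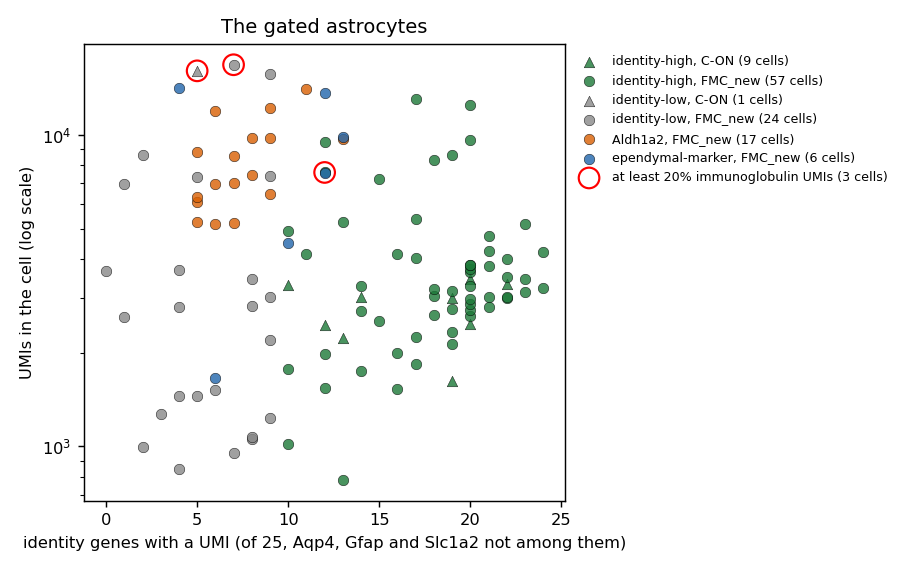
Each point is 1 of the 114 cells, with the number of the 25 identity genes that had a UMI on the x axis and its UMIs on a log y axis; colours mark the 4 groups, triangles are C-ON and circles FMC_new, and red rings mark the 3 cells with at least 20% immunoglobulin UMIs. The 66 identity-high cells lie at 10 genes or more by construction, and the Aldh1a2 and ependymal-marker cells, with medians of 7455 and 8724.5 UMIs, sit high among the cells.

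Immunoglobulin genes, which mark plasma cells, took at least 20% of UMIs in 3 cells. The cell of C-ON held 16106 UMIs, 57.5% of them immunoglobulin, and thus 39.3% of all astrocyte UMIs of that library, and the 2 cells of FMC_new held 4.69% of theirs. The median astrocyte had 0.221% immunoglobulin UMIs in C-ON and 0.961% in FMC_new, close to T cells of the same libraries at 0.126% and 1.07%. Counts over all genes are therefore given for all 114 cells, without these 3 cells, and for the identity-high cells alone. Identity-high cells still include 1 of the 3, a cell of FMC_new with 42.0% immunoglobulin UMIs. The immunoglobulin gene Igkv1-117 stood at 6953 CPM in identity-high cells and 383 in the other astrocytes. Counts within lists are for all 114 cells unless another set is named. Both of these alternatives were chosen after the data had been seen.

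Within the rule, Slc1a2 was the gene found in most cells. It had a UMI in 92 of 114 cells (10 of 10 in C-ON and 82 of 104 in FMC_new), Aqp4 in 64 (6 and 58) and Gfap in 43 (2 and 41). Slc1a2 stood at 2634 CPM in C-ON and 1308 in FMC_new, Aqp4 at 341 and 338, and Gfap at 48.8 and 458. All 3 genes were found together in 14 cells, Aqp4 with Slc1a2 in 30, Slc1a2 alone in 27, Gfap with Slc1a2 in 21, Aqp4 alone in 14, Aqp4 with Gfap in 6 and Gfap alone in 2. At the threshold, 34 cells of FMC_new had exactly 3 UMIs (median 7 identity genes, 7 of them identity-high), and 62 that met every other criterion had exactly 2 (median 6, 8 identity-high). C-ON had no cell with 3 and 3 cells with 2. These values follow from the rule and are given without a test.

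To evaluate how astrocytes differ from other cells of the same nerves, raw UMIs were summed per library over astrocytes and over 3 classes gated in the same way: oligodendrocyte precursor-like (OPC-like) glioma cells (108 in C-ON and 629 in FMC_new), oligodendrocytes (5240 and 2102) and nerve sheath fibroblasts (71 and 208). The 8 sums were fitted with edgeR's quasi-likelihood test with the library as a block, and p-values were adjusted by Benjamini-Hochberg over all 11857 genes tested. The 12 genes used to gate the classes were left out of every count, and all other genes were read in the same cells that the gates had chosen. With 2 libraries and 3 residual degrees of freedom, p-values measure how far the differences between classes varied between these libraries. The block takes up the difference between the libraries themselves.

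Astrocytes carried more transcripts of the glutamate transporter Slc1a3, the GABA transporter Slc6a11, connexins and apolipoproteins than the OPC-like glioma cells. They carried fewer of the RAS-responsive genes Ccnd1, Spry1, Etv4 and Etv5, of which only Ccnd1 and Spry1 were also called in identity-high cells alone. The calls of Ccnd1, Etv4 and Etv5 did not hold under every alternative run. Against the glioma cells, 693 genes were higher in astrocytes (5.84% of those tested) and 591 lower (4.98%). Against oligodendrocytes, 2216 were higher (18.7%) and 1885 lower (15.9%), and against fibroblasts 1047 were higher (8.83%) and 681 lower (5.74%). Without the 3 immunoglobulin-rich cells the counts were 659 (5.58%) and 557 (4.72%) against glioma cells, 2148 (18.2%) and 1798 (15.2%) against oligodendrocytes, and 1042 (8.83%) and 648 (5.49%) against fibroblasts. With identity-high cells alone they were, with the identity genes left out, 572 (4.88%) and 465 (3.96%), 1608 (13.7%) and 1529 (13.0%), and 1039 (8.86%) and 888 (7.57%). Without the library block, 417 genes were higher and 345 lower than in glioma cells. The median log2 difference over all genes tested was -0.09, -0.15 and -0.05 in the 3 comparisons. With the DESeq2 size factors, the median against oligodendrocytes was 0.00 in place of -0.15, and DESeq2's Wald test split the oligodendrocyte calls as 2986 higher and 1367 lower.

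Most of the 25 astrocyte identity genes were higher in astrocytes than in each other class. Against glioma cells 21 of 25 were higher and none lower (median log2 difference 3.68). Against oligodendrocytes 23 were higher and 1, Kcnj10, was lower (median 7.24), and against fibroblasts 20 were higher and none lower (median 4.39). Summed, the 25 genes took 17024 CPM in astrocytes of C-ON and 12058 in those of FMC_new, and 27595 and 23756 in identity-high cells. These genes chose the identity-high cells, so their levels there were in part set by that choice. The same sum was 3081 and 2110 in glioma cells, 787 and 847 in oligodendrocytes, 3375 and 3148 in fibroblasts and 204 and 299 in T cells. The sum of either library's astrocytes was thus above that of every other class in both libraries.

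**Figure D2:**
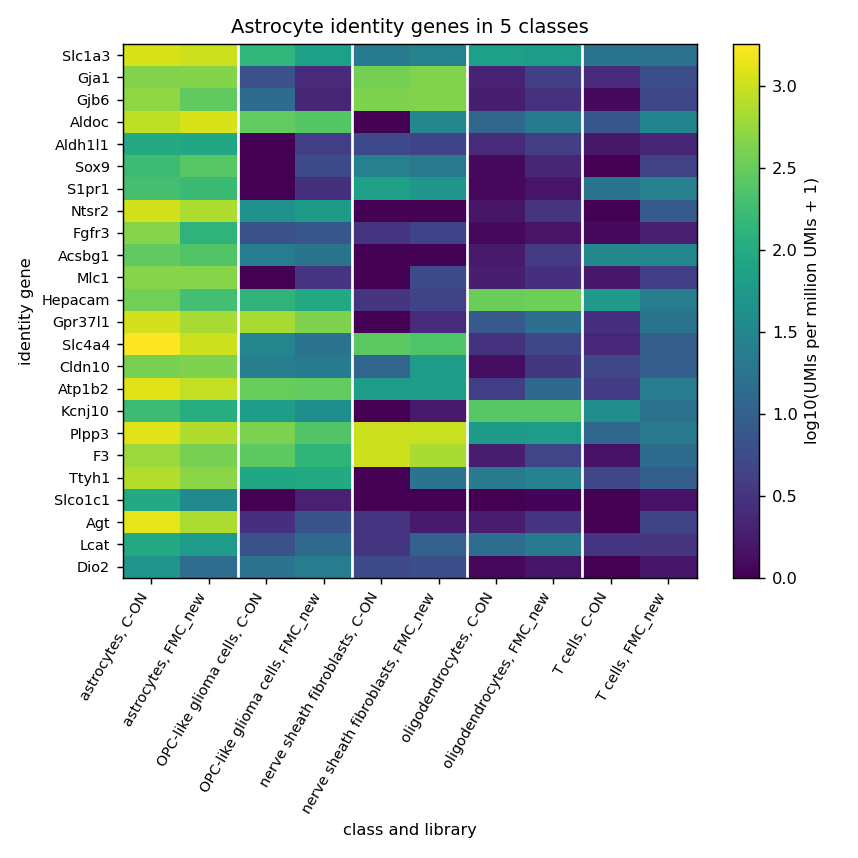
Levels of 24 of the identity genes (rows) in astrocytes, OPC-like glioma cells, oligodendrocytes, nerve sheath fibroblasts and T cells of each library (columns), as log10 of CPM plus 1. Astrocytes are filled in nearly every row in both libraries, glioma cells carry Gpr37l1 and Aldoc, oligodendrocytes Kcnj10 and Hepacam, and fibroblasts Gja1, Gjb6, Plpp3 and F3.

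Slc1a3, the glutamate transporter GLAST (ENSMUSG00000005360, GRCm38 15:8634124-8710764), stood at 1146 CPM in astrocytes of C-ON (interval 842 to 1524) and 1005 in those of FMC_new (921 to 1095). Glioma cells held 138 and 69.5, oligodendrocytes 68.2 and 60.1, and fibroblasts 21.3 and 27.9. Both astrocyte sums lay above every other class. The log2 difference was 3.40 ± 0.39 (SE; adjusted p = 4.44e-05) against glioma cells and 5.18 ± 0.44 (SE; adjusted p = 2.59e-06) against fibroblasts. A UMI of Slc1a3 was found in 76.3% of astrocytes (interval 67.4 to 83.8) and 95.5% of identity-high cells, compared with 4.69% of T cells (median 4089 UMIs in C-ON and 3758 in FMC_new), which should lack it. After each cell had been thinned to 1000 UMIs, which left out 4 astrocytes of FMC_new and none of C-ON, the shares in astrocytes and T cells were 50.9% and 0.975%. Slc1a3 is among the genes that chose identity-high cells, so their share of 95.5% was in part set by that choice.

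Not every identity gene told astrocytes from all 3 classes. Against glioma cells, Gpr37l1 (a receptor for prosaptide) gave 0.56 ± 0.42 (SE; adjusted p = 0.512) and Hepacam (an adhesion protein that partners Mlc1) gave 1.12 ± 0.37 (SE; adjusted p = 0.0669), and F3 and Dio2 did not pass either. Hepacam stood at 338 CPM in oligodendrocytes, above the astrocyte levels of 192 in FMC_new and below 366 in C-ON. The connexin gene Gja1 (ENSMUSG00000050953, GRCm38 10:56377330-56402513) stood at 439 and 445 in astrocytes, at 5.51 and 1.48 in glioma cells and at 381 and 429.6 in fibroblasts. Its log2 difference was 7.68 ± 0.62 (SE; adjusted p = 2.58e-06) against glioma cells and -0.10 ± 0.40 (SE; adjusted p = 0.907) against fibroblasts. Connexin 30 (Gjb6), the lipid phosphatase Plpp3 and tissue factor (F3) likewise gave -0.41 ± 0.48 (SE; adjusted p = 0.639), -0.21 ± 0.40 (SE; adjusted p = 0.786) and -1.07 ± 0.54 (SE; adjusted p = 0.219) against fibroblasts. None of these 4 genes passed the test against fibroblasts.

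Glioma cells carried next to no transcripts of several genes, among them Mlc1 and Itih3. Mlc1, a membrane protein of astrocyte endfeet, stood at 463 and 464 CPM in astrocytes and at 0 and 2.23 in glioma cells, a log2 difference of 7.92 ± 0.51 (SE; adjusted p = 2.83e-07). Itih3, a hyaluronan-binding heavy chain, gave 9.68 ± 0.58 (SE; adjusted p = 2.54e-07). By the rule that took the 10 genes of largest difference, Slc39a12 (a zinc transporter), Rgs6 (a regulator of G protein signalling), Fam20a and Paqr6 were also named against glioma cells, at 8.63 ± 0.64 (SE; adjusted p = 1.02e-06), 8.94 ± 0.78 (SE; adjusted p = 4.21e-06), 9.58 ± 0.83 (SE; adjusted p = 4.05e-06) and 8.44 ± 0.72 (SE; adjusted p = 3.71e-06). The other 5 were B230323A14Rik, Gm17455, Pdzph1, Sfrp5 and Ighv5-6, of which Ighv5-6 had 99.6% of its astrocyte UMIs in 1 cell. Glioma cells had no UMI of B230323A14Rik, Gm17455 or Pdzph1.

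Against oligodendrocytes, the 10 were led by Slc7a10, a transporter of serine and glycine, at 11.66 ± 0.53 (SE; adjusted p = 2.97e-09). The ectonucleotidase Entpd2 gave 10.23 ± 0.54 (SE; adjusted p = 7.39e-09) and Btbd17 9.65 ± 0.70 (SE; adjusted p = 8.22e-08), and the others were Cyp4f15, Gdpd2, Slco1c1 (a thyroid hormone transporter), Gm3764, Kcnt1, Gm17455 and Ighv5-6. Against fibroblasts all 10 had no UMI in 279 fibroblasts, so only bounds can be given, computed against 3 UMIs over the class. Ntsr2, a neurotensin receptor, was at least 459-fold higher, Ednrb (the endothelin receptor B) at least 230.5-fold, Acsbg1 (a fatty acyl-CoA ligase) at least 147-fold and the Notch target Hes5 at least 70.9-fold. The bounds of Sfrp5, Dbx2, Pcdh10, Gm6145, Cyp4f15 and B230323A14Rik were 66.5, 65.4, 60.9, 56.5, 44.3 and 38.8.

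Among 12 genes of glutamate and GABA handling, 10 were higher in astrocytes than in glioma cells and 1 lower (median 2.29), 8 were higher and 3 lower than in oligodendrocytes (median 1.93), and 10 were higher and none lower than in fibroblasts (median 4.26). Slc6a11, the GABA transporter GAT-3 (ENSMUSG00000030307, GRCm38 6:114131241-114249952), stood at 902 CPM in C-ON (635 to 1244) and 568 in FMC_new (505 to 636). Glioma cells held 9.18 and 14.1, and oligodendrocytes 0.521 and 1.33. Both astrocyte sums lay far above both classes, with log2 differences of 5.67 ± 0.43 (SE; adjusted p = 1.11e-06) and 9.17 ± 0.46 (SE; adjusted p = 5.71e-09). Slc6a11 had a UMI in 55.3% of astrocytes and 84.8% of identity-high cells against 0.855% of T cells, or 38.2% and 0.186% at 1000 UMIs.

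Glutamine synthetase (Glul) put astrocytes between glioma cells and oligodendrocytes. It stood at 1219 and 1297 CPM in astrocytes, 269.7 and 154 in glioma cells and 3769.8 and 3709 in oligodendrocytes. Both astrocyte sums were above the glioma cells and below the oligodendrocytes, at 2.57 ± 0.50 (SE; adjusted p = 0.00326) and -2.04 ± 0.49 (SE; adjusted p = 0.00392). The metabotropic receptor genes split as well. Grm5 was lower in astrocytes than in glioma cells, at -3.65 ± 0.42 (SE; adjusted p = 4.44e-05), on 15 UMIs of which 9 came from 1 cell. Grm3 was lower than in oligodendrocytes, at -1.29 ± 0.40 (SE; adjusted p = 0.0206), and the GABA-B receptor gene Gabbr1 likewise, at -1.35 ± 0.36 (SE; adjusted p = 0.00811).

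Ion, water and junction genes were higher in astrocytes for 11 of 13 members against glioma cells (median 2.15) and 11 against oligodendrocytes (median 6.90), with none and 1 lower. The bicarbonate cotransporter Slc4a4 stood at 1805 and 1021 CPM in astrocytes against 29.4 and 16.6 in glioma cells (5.91 ± 0.50 SE, adjusted p = 3.71e-06). The inward rectifier Kcnj10, which buffers potassium in astrocytes and is also used by oligodendrocytes, was the member lower than in oligodendrocytes, at -1.49 ± 0.35 (SE; adjusted p = 0.00347). Against fibroblasts 8 were higher and 1 lower (median 3.87), and the lower one was connexin 26 (Gjb2) at -2.87 ± 0.46 (SE; adjusted p = 0.000438).

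Most of the listed genes of lipid transport and metabolism were higher in astrocytes than in each other class. Of 16 members, 10 were higher and none lower than in glioma cells (median 1.57), 12 higher and 3 lower than in oligodendrocytes (median 2.76), and 11 higher and none lower than in fibroblasts (median 2.45). Apoe, the main apolipoprotein of the brain, stood at 6244 CPM in C-ON (5502 to 7057) and 7972 in FMC_new (7732 to 8218), with glioma cells at 833 and 994. Its log2 difference was 2.88 ± 0.57 (SE; adjusted p = 0.00350), and it had a UMI in 91.2% of astrocytes and 24.9% of T cells, the latter read as background. Clusterin (Clu) gave 2.81 ± 0.50 (SE; adjusted p = 0.00156) against glioma cells and 7.02 ± 0.59 (SE; adjusted p = 3.4e-07) against oligodendrocytes, the platelet-activating factor hydrolase Pla2g7 4.50 ± 0.54 (SE; adjusted p = 6.26e-05) and Acsbg1 3.68 ± 0.49 (SE; adjusted p = 0.000206) against glioma cells. Fabp7, a fatty acid binding protein of glial progenitors, stood at 341 and 232 in astrocytes and 440.4 and 387 in glioma cells, which did not pass the test (-0.68 ± 0.34 SE, adjusted p = 0.259). The 3 members lower than in oligodendrocytes were Fabp5 (-2.81 ± 0.51 SE, adjusted p = 0.000436), the cholesterol synthesis gene Hmgcs1 (-3.30 ± 0.46 SE, adjusted p = 4.48e-05) and the desaturase Scd2 (-3.15 ± 0.51 SE, adjusted p = 0.000153), and the latter pair supply lipid to myelin.

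Of 19 genes of energy, redox and metal metabolism, 9 were higher and none lower than in glioma cells (median 1.44), and 6 were higher without the 3 immunoglobulin-rich cells. Against oligodendrocytes 12 were higher and 3 lower (median 2.25), and against fibroblasts 8 and 2. The aldolase gene Aldoc stood at 878 and 1143 CPM, with 299 and 247 in glioma cells and 0 and 30.7 in fibroblasts. Its difference was small against glioma cells, at 1.76 ± 0.52 (SE; adjusted p = 0.0415), and large against fibroblasts, at 5.67 ± 0.64 (SE; adjusted p = 2.06e-05). Slc7a11, the cystine-glutamate exchanger, gave 5.28 ± 0.62 (SE; adjusted p = 5.74e-05) and the glutathione transferase Gstm1 4.15 ± 0.60 (SE; adjusted p = 0.000302) against glioma cells. The latter was 3203 CPM in the Aldh1a2 cells and 723 in identity-high cells. Metallothionein 3 (Mt3) did not pass against glioma cells (0.85 ± 0.52 SE, adjusted p = 0.390) and was higher than in oligodendrocytes (5.76 ± 0.61 SE, adjusted p = 3.03e-06) and fibroblasts (6.28 ± 0.65 SE, adjusted p = 1e-05). Serine synthesis genes were lower than in oligodendrocytes, Phgdh at -1.62 ± 0.43 (SE; adjusted p = 0.00786) and Psat1 at -3.38 ± 0.44 (SE; adjusted p = 2.14e-05).

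Transcription factors, of which 18 of 24 listed could be tested, gave 7 higher and none lower against glioma cells (median 1.31), namely Sox9, Id1, Id3, Id4, Hes1, Hes5 and Zic1. Sox9, the glial fate factor, stood at 171 and 257 CPM in astrocytes and 0 and 4.45 in glioma cells, at 5.98 ± 0.59 (SE; adjusted p = 1.27e-05). Id4 gave 4.59 ± 0.48 (SE; adjusted p = 2.49e-05) and Hes5 4.58 ± 0.70 (SE; adjusted p = 0.000614). Against oligodendrocytes 14 were higher and none lower (median 5.22), and against fibroblasts 6 higher and 2 lower (median 0.80). The lower pair was Id1 at -1.65 ± 0.49 (SE; adjusted p = 0.0315) and Id3 at -1.73 ± 0.55 (SE; adjusted p = 0.0457), both targets of BMP signalling. Sox2, a factor of neural progenitors and glia, was higher than in fibroblasts at 6.93 ± 0.77 (SE; adjusted p = 1.88e-05), and Nfia, which starts astrocyte formation, higher than in oligodendrocytes at 1.22 ± 0.38 (SE; adjusted p = 0.0198). Id1 had 489 CPM in the Aldh1a2 cells and 55.0 in identity-high cells.

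Of 18 receptor genes, 8 were higher and none lower than in glioma cells, namely Fgfr1, Fgfr3, Egfr, Ednrb, S1pr1, Notch2, Tgfbr2 and Sdc4. Fgfr3 stood at 463 CPM in C-ON (279 to 724) and 129 in FMC_new (99.6 to 163), with 5.51 and 6.43 in glioma cells (4.94 ± 0.59 SE, adjusted p = 6.21e-05). The growth factor receptor Egfr gave 3.86 ± 0.43 (SE; adjusted p = 3.89e-05), the coreceptor Sdc4 4.81 ± 0.52 (SE; adjusted p = 3.03e-05) and Ednrb 1.91 ± 0.42 (SE; adjusted p = 0.00750). Ednrb was also higher than in oligodendrocytes, at 9.57 ± 0.55 (SE; adjusted p = 2.77e-08). Ptprz1, the receptor phosphatase that binds pleiotrophin, stood at 854 and 569.7 in astrocytes and 1874 and 998 in glioma cells and did not pass (-1.09 ± 0.45 SE, adjusted p = 0.154), while against fibroblasts it gave 7.28 ± 0.66 (SE; adjusted p = 3.72e-06). Against oligodendrocytes 12 receptors were higher and 2 lower, and against fibroblasts 7 and 2.

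Genes that act on synapses, matrix and phagocytosis gave 7 higher and none lower of 13 tested, among 15 listed, against glioma cells (median 1.39), 11 and 1 against oligodendrocytes, and 5 and 3 against fibroblasts. Sparcl1 (hevin) stood at 3293 and 2145 CPM in astrocytes, 589 and 356 in glioma cells and 3.70 and 10.8 in oligodendrocytes. The log2 differences were 2.45 ± 0.53 (SE; adjusted p = 0.00633) and 8.04 ± 0.68 (SE; adjusted p = 3.47e-07). The glypican gene Gpc5 stood at 3073 in C-ON and 1055 in FMC_new, with 620.2 and 349 in glioma cells (1.94 ± 0.50 SE, adjusted p = 0.0193). Thrombospondin 2, a matrix protein of fibroblasts, was lower than in fibroblasts at -3.06 ± 0.62 (SE; adjusted p = 0.00274).

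Among secreted factors, 15 of 22 could be tested. Against glioma cells 4 were higher (Vegfa, Tgfb2, Cxcl12 and Cxcl10) and 1 lower, the synaptic adhesion gene Nlgn3 at -1.73 ± 0.50 (SE; adjusted p = 0.0371). Vegfa, the vascular growth factor, stood at 48.8 and 69.1 CPM in astrocytes and 22.0 and 17.6 in glioma cells (1.72 ± 0.47 SE, adjusted p = 0.0270). Tgfb2 gave 2.33 ± 0.55 (SE; adjusted p = 0.0119), from 0 UMIs in C-ON and 52 in FMC_new, so that the direction rested on FMC_new. Of the Cxcl10 UMIs 94.7% came from 1 cell, and no identity-high cell had a UMI of Cxcl12. Midkine and pleiotrophin, growth factors of developing glia, did not pass against glioma cells, Mdk at 0.43 ± 0.44 (SE; adjusted p = 0.670) and Ptn at -0.29 ± 0.44 (SE; adjusted p = 0.795). Mdk was higher than in oligodendrocytes at 6.44 ± 0.51 (SE; adjusted p = 1.88e-07). Against oligodendrocytes 8 were higher and 4 lower. Il33, the alarmin, was lower at -3.45 ± 0.49 (SE; adjusted p = 4.69e-05), and Csf1, the microglial growth factor, at -2.64 ± 0.43 (SE; adjusted p = 0.000164). Against fibroblasts 4 were higher and 2 lower, with Cxcl12 at -2.15 ± 0.51 (SE; adjusted p = 0.00928).

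Some RAS pathway and RAS-responsive genes were lower in astrocytes than in glioma cells. Of 16 listed and 15 tested, 4 were lower (median -0.59), namely Ccnd1, Spry1, Etv4 and Etv5, beside 4.98% of all genes tested. None was higher, where 5.84% of all genes tested were, so that none among 15 is close to that share. Cyclin D1 had 0 UMIs in astrocytes of C-ON, an interval of 0 to 90.0 CPM, and stood at 180.3 in FMC_new (146 to 221), with 831 and 651 in glioma cells. Astrocytes were lower in both libraries, at -2.78 ± 0.56 (SE; adjusted p = 0.00409). The feedback inhibitor Spry1 had 0 and 16 UMIs and gave -2.74 ± 0.48 (SE; adjusted p = 0.00149). Etv4 and Etv5, transcription factors induced by ERK, gave -2.23 ± 0.53 (SE; adjusted p = 0.0114) and -1.56 ± 0.38 (SE; adjusted p = 0.0136). In identity-high cells 2 of these 4, Ccnd1 and Spry1, were called. Against oligodendrocytes, in contrast, 6 members were higher and 2 lower, and against fibroblasts 4 were higher and 1 lower. Nf1 itself (ENSMUSG00000020716, GRCm38 11:79339693-79581612) had 3 UMIs in C-ON and 37 in FMC_new and did not pass against glioma cells (-0.59 ± 0.36 SE, adjusted p = 0.398). Counts of 5′ ends do not show whether the floxed part was deleted, so the level of Nf1 checks neither genotype nor class.

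Immediate early and stress genes gave 1 higher (Atf3) and 2 lower (Jun and Nr4a1) of 12 against glioma cells, and in identity-high cells none higher and 8 lower. Fos stood at 507 CPM in identity-high cells, 2284 in the 25 cells with few identity genes and 2041 in the Aldh1a2 cells. The identity-high level was the lowest of the 3. Of 8 cell cycle genes tested among 11 listed, none was higher and 1 lower than in glioma cells.

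**Figure D3:**
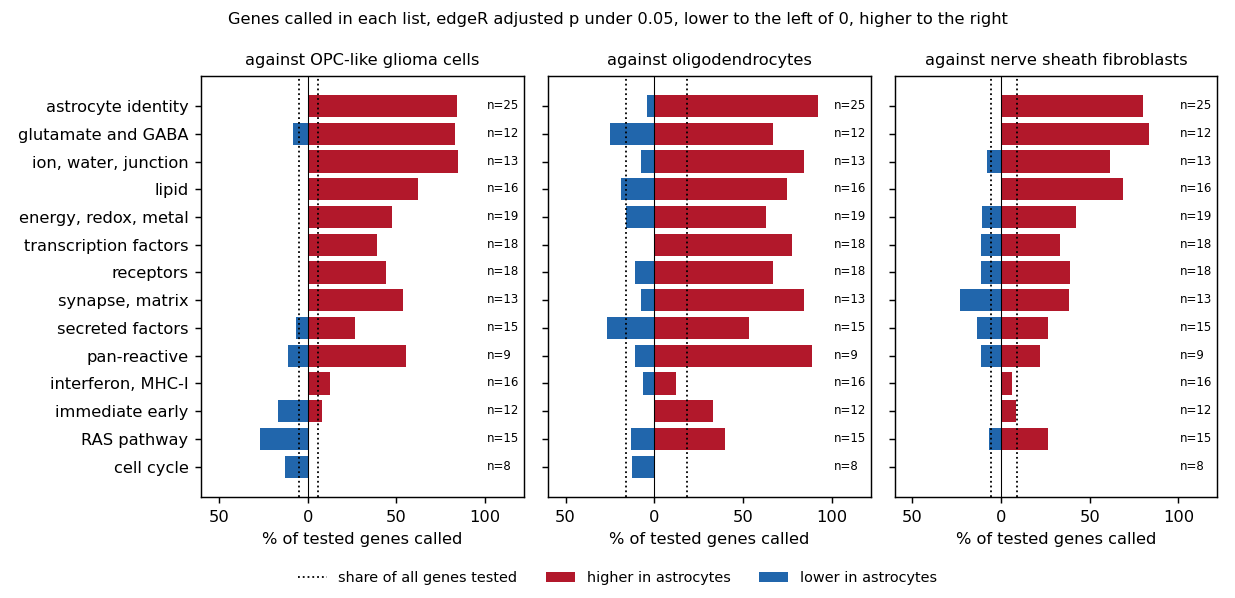
For 14 fixed lists, the percent of tested members called higher in astrocytes (red, to the right) or lower (blue, to the left) against each class; n is the number tested, and dotted lines mark the percent of all genes tested. The identity list reaches 21 of 25 against glioma cells, beside 5.84% of all genes. In that comparison the RAS list has 4 of 15 members to the left, beside 4.98% of all genes, and none to the right.

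Reactive genes were mixed. Of 9 pan-reactive genes tested among 12 listed, 5 were higher and 1 (Serpina3n) lower than in glioma cells, 8 and 1 against oligodendrocytes, and 2 and 1 against fibroblasts. The 12 genes summed to 244 CPM in astrocytes of C-ON, on 10 UMIs, and 1922 in those of FMC_new. Glioma cells held 435 and 603, so that the sum was above them in FMC_new only. Cxcl10, 1 of the 5, came almost wholly from 1 cell. Without the library block, none of the 9 was called against glioma cells, and in identity-high cells 4 were higher and none lower. Of 10 genes tested among 12 listed for the neurotoxic A1 state, 6 (H2-T23, Serping1, Ggta1, Gbp2, Fbln5 and Srgn) were higher and none lower than in glioma cells, and 3 were higher both without the immunoglobulin-rich cells and in identity-high cells alone. Srgn, a granule proteoglycan of blood cells, stood at 74.6 CPM in identity-high cells and 808 in the 25 cells with few identity genes. Of 6 A2 genes tested among 12, 1 (Tm4sf1) was higher. Of 10 filament and cytoskeleton genes tested among 11, 4 were higher and none lower than in glioma cells, 6 and 2 against oligodendrocytes, and 0 and 1 against fibroblasts. Vim (vimentin) had 3 UMIs in C-ON and 498 in FMC_new, 73.2 and 955 CPM, with glioma cells at 66.1 and 118 (2.38 ± 0.64 SE, adjusted p = 0.0245). A single cell held 43.9% of those UMIs. The calcium-binding protein S100a6 gave 2.01 ± 0.59 (SE; adjusted p = 0.0385), with 45.4% in 1 cell and a log2 ratio of -0.25 in C-ON alone. Serpina3n, an acute phase protease inhibitor, gave -1.57 ± 0.47 (SE; adjusted p = 0.0450). The interferon-induced GTPase Gbp2 gave 3.86 ± 0.52 (SE; adjusted p = 0.000154) on 0 UMIs in C-ON and 94 in FMC_new. Of 8 genes of fibrous, white matter astrocytes tested among 10, 4 (Igfbp5, Id3, S100a6 and Vim) were higher than in glioma cells. The tetraspanin Cd9 was lower at -1.71 ± 0.49 (SE; adjusted p = 0.0355). Igfbp5 stood at 5188 CPM in the Aldh1a2 cells and 211 in the other astrocytes. The 10 fibrous genes summed to 756 CPM in C-ON and 5039 in FMC_new, with glioma cells at 2413 and 2534. That sum was thus above glioma cells in FMC_new only. Of 5 grey matter genes tested among 7, 3 (Slc6a11, Mfge8 and Htra1) were higher and none lower than in glioma cells. The 7 grey matter genes summed to 3780 CPM in C-ON and 1930 in FMC_new, with glioma cells at 934 and 647. This sum was thus above glioma cells in both libraries.

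Identity-high cells with several Gfap UMIs seldom carried the GABA transporter Slc6a11. Of 43 identity-high cells without a Gfap UMI, 42 had Slc6a11 (97.7%), as did 13 of 16 with 1 or 2 Gfap UMIs (81.2%) and 1 of 7 with at least 3 (14.3%). The 7 cells, all of FMC_new, were deeper, with a median of 7248 UMIs compared with 3162 and 2828. The classes were set after the values had been seen and received no test. In the 7 cells, Slc6a11 stood at 102 CPM against 1649 in cells without Gfap, Agt (angiotensinogen) at 102 against 2138, Slc7a10 at 20.3 against 821, Itih3 at 20.3 against 1185, and Ntsr2 at 244 against 1931. Genes shared by both kinds of cell were Slc1a3 at 3072 and 1881, Gja1 at 834 and 896, Mlc1 at 1139 and 614, and Apoe at 14708 and 13103. Slc1a3, Gja1, Mlc1, Agt and Ntsr2 are among the 25 genes that chose identity-high cells, and Gfap is a gene of the rule, so that a cell with at least 3 Gfap UMIs met it by Gfap alone.

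The same 7 cells carried filament and reactive genes. Vim had a UMI in 7 of 7 against 4 of 43 without Gfap, S100a6 in 6 against 12, Serpina3n in 5 against 8, Vcam1 in 5 against 16 and Cd44 in 4 against 1. Vim stood at 7771 CPM against 43.9, or 3295 without the UMIs of the top cell, and S100a6 at 5086 against 87.8, or 1383 without the top cell. Serpina3n stood at 936 against 75.2, the adhesion gene Vcam1 at 895 against 138, and Clu at 6998 against 2395. Without the UMIs of the top cell among the 7, these 3 genes stood at 325, 387 and 3824 there. Cxcl10 had 89 of 90 UMIs in 1 of the 7 cells. Markers of other cells moved with this group. At least 2 of 7 pituicyte and tanycyte markers, of which Vcam1 is 1, were found in 5 of the 7 cells and 4 of the 43 without Gfap, and an ependymal marker in 5 and 12. Their part in the result was not tested. Vim and S100a6 are also expressed by other cells of the nerve, Vim at 859.8 in fibroblasts and 650.2 in T cells.

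**Figure D4:**
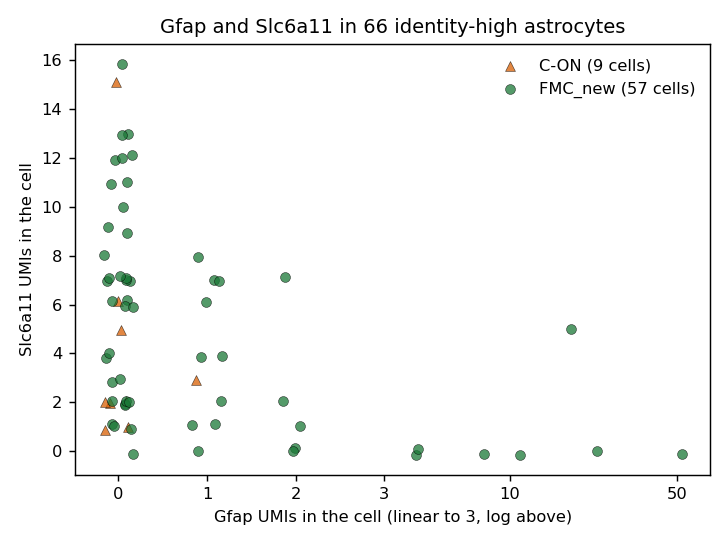
Gfap UMIs (x axis, linear to 3 and log above) and Slc6a11 UMIs (y axis) in each of the 66 identity-high cells, with points jittered by up to 0.18 so that equal counts can be seen. Cells without Gfap spread up the Slc6a11 axis (42 of 43 with a UMI), and of the 7 cells with at least 3 Gfap UMIs 1 lies above 0.

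Class I antigen presentation genes, which T cells read on target cells, differed between the libraries. Of 16 interferon and class I genes, 2 (Bst2 and Gbp2) were higher and none lower than in glioma cells. In identity-high cells, H2-K1 had 1 UMI in the 9 cells of C-ON, or 40.2 CPM (1.02 to 224), and 1393 in the 57 cells of FMC_new (1245 to 1555). H2-D1 had 0 UMIs in C-ON (0 to 148) and 1106 CPM in FMC_new (974 to 1251). B2m, the light chain of class I, stood at 161 (43.8 to 411) and 1411 (1261 to 1573). All 3 were higher in FMC_new by intervals that do not overlap. The interferon-induced Bst2 had no UMI in C-ON and stood at 401 CPM in FMC_new. Over all astrocytes of C-ON, H2-K1 stood at 1341, with 1 of its 55 UMIs outside the immunoglobulin-rich cell.

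Other cells of the libraries did not share this in equal measure. H2-K1 stood at 307 in oligodendrocytes of C-ON and 953 in those of FMC_new, and at 3148 and 3199.8 in T cells. H2-D1 stood at 718 and 2190.3 in oligodendrocytes and 2320.1 and 2269 in T cells. T cells were thus level between libraries, and oligodendrocytes were higher in FMC_new. Filament genes were also higher in FMC_new, Vim at 40.2 and 1707 CPM of identity-high cells and Gfap at 40.2 and 610. The 7 cells of FMC_new with at least 3 Gfap UMIs held 382 of the 393 Vim UMIs and 120 of the 141 Gfap UMIs of identity-high cells. Vim stood at 43.9 CPM in identity-high cells without Gfap and 87.2 in those with 1 or 2 Gfap UMIs. A difference between 2 single libraries has no replicate check, and no test was made.

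Several genes were higher in identity-high cells of C-ON by intervals that do not overlap. Pde10a, a phosphodiesterase, stood at 1607 (1148 to 2188) in C-ON and 34.8 in FMC_new, Gabbr2 at 1245 and 283, Gpc5 at 5021 and 1977, the adhesion gene Ntm at 4539 and 1049, and Rgs6 at 1245 and 266. The nuclear RNA Malat1 stood at 34343 and 18470.1. Malat1 was thus higher in the same library as these genes, and its part in the result was not tested. Core genes lay within each other's counting intervals. Slc1a3 stood at 1888 and 2073, Gja1 at 723 and 858, and Slc6a11 at 1486 and 1237. Slc1a3 and Gja1 are among the 25 genes that chose identity-high cells, so their levels were in part set by that choice. Slc6a11 is not among them.

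**Figure D5:**
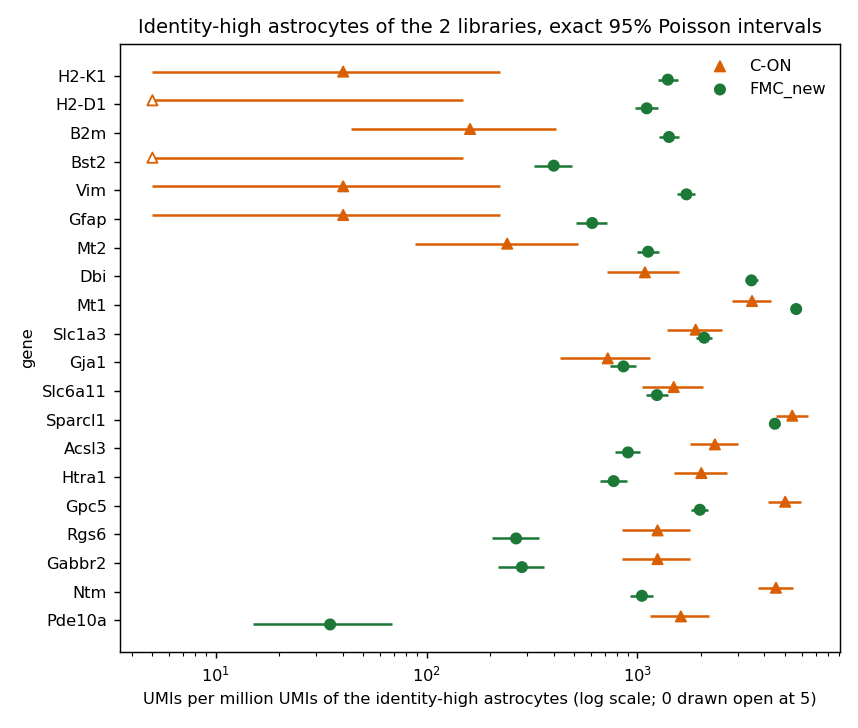
Levels of 20 genes in the identity-high cells of C-ON (9 cells) and FMC_new (57 cells) in CPM on a log axis, with 95% Poisson intervals; a level of 0 is drawn open at 5, where intervals are also cut on the left. Class I and interferon genes lie apart with FMC_new higher, Pde10a and Gpc5 lie apart with C-ON higher, and the core genes Slc1a3, Gja1 and Slc6a11 overlap. Slc1a3 and Gja1 are among the genes that chose these cells.

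Over all 114 astrocytes, the 10 genes furthest apart in each direction between the libraries were largely not astrocyte genes. Gh, Pomc, Prl and Cga, pituitary hormone genes, were at least 293-fold, 33.9-fold, 33.2-fold and 16.0-fold higher in FMC_new, computed with C-ON, where they had 0 UMIs, at 3 UMIs over its 10 cells. In FMC_new 1 cell held 7324 of the 11194 Gh UMIs, and another held 603 of the 1268 Prl UMIs. Mia (at least 28.9-fold) and Igfbp5 (21.5-fold) were genes of the Aldh1a2 cells, and Ifitm3 was 26.2-fold higher. The immunoglobulin genes Igkv14-100, Ighv1-14 and Igkv1-117 filled the list in that direction, and Ighv5-4, Igkv4-53, Ighv5-6, Jchain, Igha and the plasma cell gene Mzb1 filled most of the list towards C-ON. The others towards C-ON were Ly6c2, Utp14b and Clmn (12.7-fold, 10.6-fold and 10.0-fold higher) and Pde10a (11.0-fold).

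The 20 genes with the most UMIs in astrocytes, mitochondrial and ribosomal genes aside, held glial and foreign RNA together. Apoe, Cst3, Mt1, Dbi and Ckb stood beside Malat1, Fth1, Eef1a1, Gm42418, Cmss1 and AY036118, the myelin gene Mbp, Gh, Jchain and 6 immunoglobulin genes. The 7 oligodendrocyte markers summed to 3707 CPM in astrocytes of C-ON and 3478 in those of FMC_new, compared with 12641 and 5826 in T cells and 65352 and 55768 in oligodendrocytes. The astrocyte level was thus below that of T cells in each library. Macrophage markers summed to 24.4 and 1414 in astrocytes, 40.2 and 927 in identity-high cells and 355 and 1420 in T cells. Of 12 astrocytes that had a UMI of at least 3 of them, 6 were identity-high. Pituitary hormone markers other than Gh and Prl summed to 0 and 5216 (277 and 5061 in glioma cells, 0 and 7576 in identity-high cells). In FMC_new the identity-high value was thus above that of all astrocytes. Of 8 astrocytes that had a UMI of at least 3 of these markers, 3 were identity-high. Ependymal markers summed to 0 and 3367 (283 in identity-high cells of FMC_new). Folliculostellate markers summed to 390.2 and 1594 (574 and 316 in glioma cells, 643 and 958 in identity-high cells). Pituicyte and tanycyte markers summed to 219.5 and 246 (25.7 and 77.4 in glioma cells, 362 and 505 in identity-high cells). T cell markers summed to 0 and 30.7, fibroblast markers outside the gates to 48.8 and 13.4, and endothelial markers to 0 and 190. OPC-like glioma markers outside the gates summed to 561 and 349 against 5221 in glioma cells.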

How the data were processed

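Per the labels and the design text of the series, the authors aligned 5′ reads to mm10 (reference mm10-2020-A) with Cell Ranger 7.2.0 (the paper names another version) and deposited raw UMI counts per gene and called barcode, without normalization. Whether introns were counted is not given in the sources used here. Barcodes were kept with 500 to 5000 genes, 500 to 20000 UMIs and at most 5% mitochondrial UMIs, as in the study. Members, classes and gene lists were chosen with earlier results of these data known. Counts were summed per library and class and tested with edgeR 4.0.16 in R 4.3.3 (TMM, filterByExpr, quasi-likelihood, adjusted p under 0.05). The library was a block, since sums of 1 library share cells' origin and preparation. Cells were not used as replicates. Named genes were those of fixed lists, the 10 of largest increase per comparison (same direction in each library, at least 20 UMIs), the 20 most abundant, and the 10 furthest apart each way between libraries (at least 30 UMIs). Alternatives used DESeq2 1.42.0, other normalization, filters and member rules. Doublets were not removed. Positions are from GENCODE vM21 (GRCm38, which is mm10). The test was checked on simulated data. Some genes are not reported here by name but count in the lists.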

Additional observations from a re-analysis of the deposited data

How the results depend on the processing

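The number of astrocytes was 179 at 2 or more rule UMIs, 72 at 5 or more, 148 with a mitochondrial limit of 10%, 66 as identity-high cells and 74 without cells that carried marks of other types, and 10 to 104 with 1 library left out. The share of cells with an Slc1a3 UMI was 90.3% at 5 or more UMIs, 50.9% after thinning and 75 to 90% with 1 library left out, and for Slc6a11 72.2%, 38.2% and 51.9 to 90.0%. Without a filter on low counts 1056 genes were higher than in glioma cells, on more genes tested. With no replicate block 417 were higher and 345 lower. Every other count of calls over all genes stayed within 1.5 times the value given, under every alternative run that counted calls. Counts within lists moved more. With no replicate block, against glioma cells, no pan-reactive, immediate early or cell cycle gene was called, 2 RAS pathway genes were lower and none of the fibrous or secreted genes was. Those higher were 1 filament, 1 fibrous and 1 secreted gene, 2 A1 genes, 4 of synapse and matrix and 5 of energy and redox. Against fibroblasts, 1 secreted gene, 1 RAS pathway gene, 1 pan-reactive gene and no A1 gene was higher with no replicate block, and no transcription factor was lower. With 1 library left out each class has 1 sum, so those settings give a value with no test and no count of calls. In C-ON alone, the log2 differences of S100a6 (-0.25, against 2.36 in FMC_new alone), Gbp2 (-2.08 against 3.99) and Tgfb2 (-3.80 against 2.74) reversed against glioma cells, the latter pair with 0 UMIs there, and the cause of the S100a6 value was not tested. Of 96 named differences, 84 passed, and 18 of them were lost without the block, 12 with DESeq2, 6 with DESeq2 size factors, 5 without the immunoglobulin-rich cells, 5 at 5 or more UMIs, 6 without cells that carried marks of other types, 7 in identity-high cells (of 72 compared there) and 1 without the filter. Those lost under at least 1 alternative included Aldoc, Ccnd1, Cd9, Clu, Ednrb, Etv4, Etv5, Gpc5, Nlgn3, S100a6, Serpina3n, Tgfb2, Vegfa and Vim against glioma cells, Gabbr1, Grm3 and Nfia against oligodendrocytes, and Cxcl12, Id1, Id3 and Igfbp5 against fibroblasts. Scrublet marked 1 of 8834 and 0 of 16818 cells as doublets, none of them astrocytes. So few calls were read as a failure of the method, and its result was set aside. Whether doublets remain among the astrocytes was thus not settled. Depth limits C-ON most, where 10 cells held 41002 UMIs.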
